A study of Mus musculus with 4 samples.

Results

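Transcripts of 5 genes of the neutrophil granule and cytosol, Ngp, Camp, Ltf, S100a8 and S100a9, were followed in a map of N6-methyladenosine (m6A) sites of mouse macrophages. The members are the called sites whose gene name is one of these 5 symbols, which gave 13 of 45668 sites in mouse 1, 12 of 47747 in mouse 2 and 14 of 55333 in either mouse. The 5 genes were chosen by the fold and the annotated position of their sites in both mice, so these values are given as a description and without a test. All cells were bone marrow-derived macrophages (BMDM) of wild-type mice exposed to lipopolysaccharide (LPS), the outer membrane component of Gram-negative bacteria, for 3 h. For each of the 2 mice, 1 library of RNA immunoprecipitated with an antibody against m6A (IP) was set against 1 input library of the same RNA, after selection of polyadenylated RNA. Every library carried the LPS treatment, there was no untreated group, and no strain, age or sex of the mice was stated. The files are also marked NTC, an abbreviation left undefined.

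The 5 proteins are classical products of neutrophils and their bone marrow precursors. Camp encodes the cathelicidin antimicrobial peptide, Ltf the iron-binding protein lactoferrin and Ngp a cathelicidin-related granule protein, and all 3 belong to the secondary granules. S100a8 and S100a9 encode the subunits of calprotectin, a calcium- and zinc-binding complex of the cytosol that is abundant in neutrophils, is also made by monocytes and can signal through Toll-like receptor 4. In messenger RNA m6A lies mostly within the body of the transcript, in a consensus in which the methylated adenosine is followed by C. A related mark, N6,2'-O-dimethyladenosine (m6Am), occurs on the first transcribed base beside the cap, and antibodies against m6A also bind it. The tables do not tell these marks apart.

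The sequence at the sites that were enriched in both mice is shown first, since later paragraphs refer to it. Each line gives up to 10 bases on either side of the site, read 5′ to 3′ on the transcript strand from the RefSeq promoter table of GRCm38.p6, with the called base in capitals. The window of Ngp ends 2 bases after its site because the table stops there.

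Ngp, chromosome 9 at 110419855, plus strand: gtagtgtgtcAga

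Camp, chromosome 9 at 109849447, minus strand: tggaggaggcAgtcttgggaa

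Ltf, chromosome 9 at 111019292, plus strand: ggcagaagccAggcttgtcct

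S100a8, chromosome 3 at 90669069, plus strand: ttagcctcacAtatcctttgt

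S100a8, chromosome 3 at 90669071, plus strand: agcctcacatAtcctttgtca

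S100a9, chromosome 3 at 90695691, minus strand: tgctcttaccAacatctgtga

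S100a9, chromosome 3 at 90695688, minus strand: tcttaccaacAtctgtgactc

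The called base was A at all 7 sites, and it was A at all 5321 called sites that could be read in a RefSeq window of their own gene. The base before the site was C at 6 of the 7, the exception being the S100a8 site at 90669071, where it was T. Only sites inside a promoter window, close to a RefSeq start, could be read. Over all genes these were 1999 of the 29288 sites enriched in both mice. Sites of coding sequence and 3' UTRs outside the windows were not read, so the shares below describe sites near gene starts. Among the 1998 of these sites whose preceding base could be read, 72.4% were preceded by C. The share was 30.8% of every A from the RefSeq start to 47 bases after it over all windows. None of the 7 sites was followed by C, and over all genes C followed 16.8% of 1975 readable sites enriched in both mice. The m6A consensus DRACH was searched at the site on the transcript strand. It reads A, G or T, then A or G, then the methylated A, then C, then A, C or T. The consensus was found at none of the 7. Over all genes it was found at 50 of the 1947 readable sites near gene starts enriched in both mice (2.57%). The consensus was found at 7.94% of every A from the RefSeq start to 47 bases after it over all windows. Its share among sites outside the windows is unknown. Of the 14 member sites 9 could be read, and the sites of S100a8 and S100a9 more than 400 bases from the start could not. Among the 9 the consensus was found at 1, a further site of S100a9 that was enriched in mouse 2 and not in mouse 1, and that site is shown for this reason:

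S100a9, chromosome 3 at 90695681, minus strand: aacatctgtgActctttagc

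A site was called enriched at a fold of at least 8, where the fold, a value of the authors, divides the read starts of the IP library by those of the input library within a mouse. Over all genes, 81.7% of the called sites of mouse 1, 79.1% of those of mouse 2 and 76.9% of the sites called in both passed this limit in mouse 1, in mouse 2 and in both. Of the members, 8 of 13 called sites passed in mouse 1, 8 of 12 in mouse 2 and 7 of 11 in both. The choice of the genes used these values, so nothing is read from the difference. The nearest background is that of 5' UTR sites, of which 64.7% passed in mouse 1, 61.9% in mouse 2 and 56% of those called in both passed in each.

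Ngp had 1 called site, in the 5' UTR, with folds of 41.8 (mouse 1) and 33.5 (mouse 2). These were the highest folds of any member site in either mouse and lay at the 94.9th and 91.7th percentile of all 5' UTR sites. The site lay 47 bases after the RefSeq start of the gene. The 2 mice differed by 0.32 on the log2 scale, against a median difference of 0.47 over the 3994 5' UTR sites enriched in both mice.

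Camp likewise had 1 called site in its 5' UTR, 9 bases after the RefSeq start. Its folds were 24.1 (mouse 1) and 21.2 (mouse 2), at the 85.3rd and 81.7th percentile of 5' UTR sites. The score, a measure of the authors without a stated definition, was 36.3 and 51.2.

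Ltf had 1 called site, exactly at the RefSeq start of the gene, and by mean log2 fold it was the weakest of the 7. Its fold of 9.03 in mouse 1 was the lowest of the 7 and lay just above the limit of 8. In mouse 2 its fold was 14.4, and 2 of the 7 sites were lower. On the log2 scale mouse 2 was higher by 0.68, the widest gap between mice among the 7. No other site was called anywhere in the 23475 bases of the RefSeq gene, which includes the coding sequence and the 3' UTR.

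S100a8 had 5 called sites in either mouse, in 2 groups. The first group was a pair at the 5' end. The site 2 bases before the RefSeq start had folds of 15.1 and 14.1 in mouse 1 and mouse 2, and the site at the start itself had folds of 16.01 and 20.9. The mice differed by 0.10 and 0.38 on the log2 scale at these sites, less than the median of 5' UTR sites. The second group comprised 3 adjacent bases from 456 to 458 bases after the start, also annotated as 5' UTR. Distances here run along the genome and include any intron, and the place of these sites relative to the exons was not checked. None of these was enriched: the site at 457 had folds of 7.22 and 3.01, that at 458 had 5.16 and 3.43, and that at 456 was called in mouse 2 alone with 4.33. The downstream group was thus lower than the 5' pair in both mice.

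S100a9 had 6 called sites in either mouse, and the same division into a 5' group and a downstream group. The sites 30 and 33 bases after the RefSeq start were enriched in both mice, with folds of 14.3 and 11.5 at the first and of 19.0 and 30.1 at the second. Mouse 1 was higher at the first and mouse 2 at the second. Between them lay a site called in mouse 1 alone, at 31, with a fold of 5.82. The site at 40, which holds the consensus, had folds of 6.08 (mouse 1) and 20.9 (mouse 2), a gap of 1.78 on the log2 scale and the widest of any member site. Its scores of 21.6 and 13.3 were low, and those of the pair at 30 and 33 were between 77.6 and 86.2.

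The downstream sites of S100a9, at 414 and 422 bases from the start, were annotated at a 3' splice site, the end of an intron. The site at 422 had folds of 8.34 (mouse 1) and 4.88 (mouse 2), so it was enriched in mouse 1 only. The site at 414 was called in mouse 1 alone, with 2.01. Over all genes 23.3% of the called 3' splice sites passed the limit in mouse 1 and 16.3% in mouse 2, with median folds of 2.40 and 2.25.

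**Figure D1:**
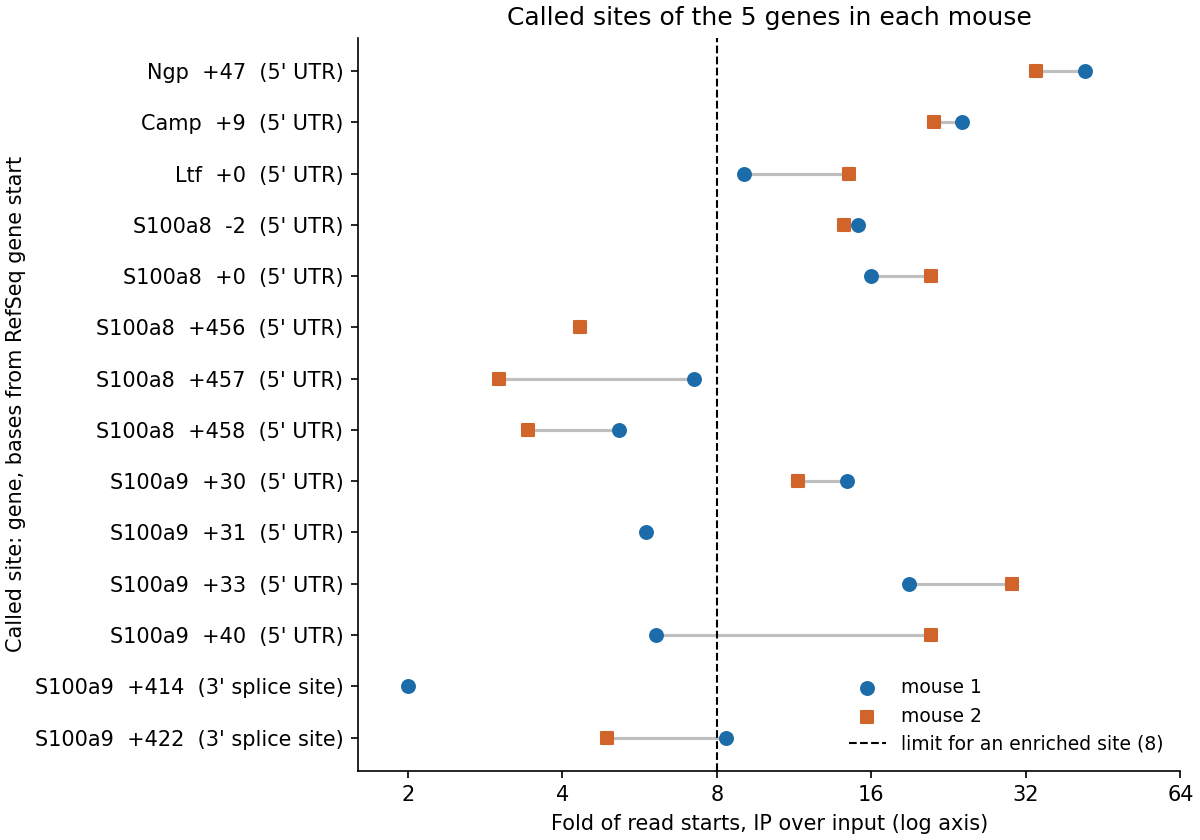
Fold of read starts (IP over input, log axis) of each of the 14 called sites of the 5 genes, with its distance in bases from the RefSeq gene start and its annotation; circles are mouse 1, squares mouse 2, a grey line joins a site called in both, and the dashed line is the limit of 8. The 7 sites right of the line in both mice lie from 2 bases before to 47 bases after a gene start, and the sites of S100a8 and S100a9 beyond 400 bases lie left of it except the S100a9 site at 422 in mouse 1.

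All 7 sites enriched in both mice lay in 5' UTRs and within 50 bases of the RefSeq gene start, and 2 lay exactly at it. Over all genes in the RefSeq table, 13.9% of the sites enriched in both mice lay in 5' UTRs, 5.94% lay within 50 bases of the start and 0.685% at the start. Restricted to 5' UTR sites enriched in both, 39.2% of 3942 were within 50 bases and 4.64% at the start. No called site of the 5 genes, enriched or not, lay in coding sequence or in a 3' UTR. Of all 7827 genes called in both mice, 17.7% had none there, and 9.68% had, as Ngp, Camp and Ltf did, a single called site at the same base in both mice. The annotated position of the sites was used to choose the 5 genes, so nothing is read from these differences. Only the listed sites can be counted: every listed site had a score above 10, and a base below that score is not in the tables.

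The 7 sites shared a further feature, noticed when their sequences were read. In each of the 5 genes the letters ATAAA began from 27 to 32 bases before the enriched site, on the transcript strand. ATAAA forms part of the TATA box, a promoter element that places the start of transcription a short way downstream. The motif was found once in the 60 bases before each site, and it is shown with its flanks, the motif in capitals:

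Ngp, 29 bases before its site: atctacATAAAaggggcc

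Camp, 31 bases before its site: atgagaATAAAtgaggct

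Ltf, 30 bases before its site: gcacagATAAAgggcccc

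S100a8, 27 and 29 bases before its sites: tcctctATAAAagcagct

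S100a9, 29 and 32 bases before its sites: ctgcctATAAAtactggg

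The base before ATAAA was T, which completes the core of the TATA box, in S100a8 and S100a9, and it was C, A and G in Ngp, Camp and Ltf. Measured from the RefSeq starts the motifs did not line up: ATAAA began 30 bases before the start in Ltf, 29 before in S100a8 and 22 before in Camp, but 1 base after it in S100a9 and 18 bases after it in Ngp. Measured from the 7 sites enriched in both mice, the 5 genes fell within 6 positions. In S100a9 and Ngp these sites lay 30 to 47 bases inside the annotated start and 29 to 32 bases after the first base of ATAAA, against 27 to 31 in the other 3 genes. Of the S100a9 sites not enriched in both mice, the site at 31 lay 30 bases and the site at 40 lay 39 bases after it.

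Over all genes, ATAAA began 25 to 35 bases before 68 of 1818 readable 5' UTR sites enriched in both mice (3.74%), which lay in 62 of 1391 genes. The share was 2.46% over the 4802 readable called 5' UTR sites of either mouse, 3.28% of 32851 RefSeq starts and 1.56% of every A in the 50 bases from those starts. The sites enriched in both mice had the motif most often at 29 bases, at 1.10% of sites against 0.153% of every A, and none at 33 to 37 bases. On either strand and anywhere in the 300-base window, ATAAA was present in all 5 member windows and in 13143 of 32851 windows overall. The motif and the range were chosen after the sequences were seen, and a match of letters says nothing of binding.

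**Figure D2:**
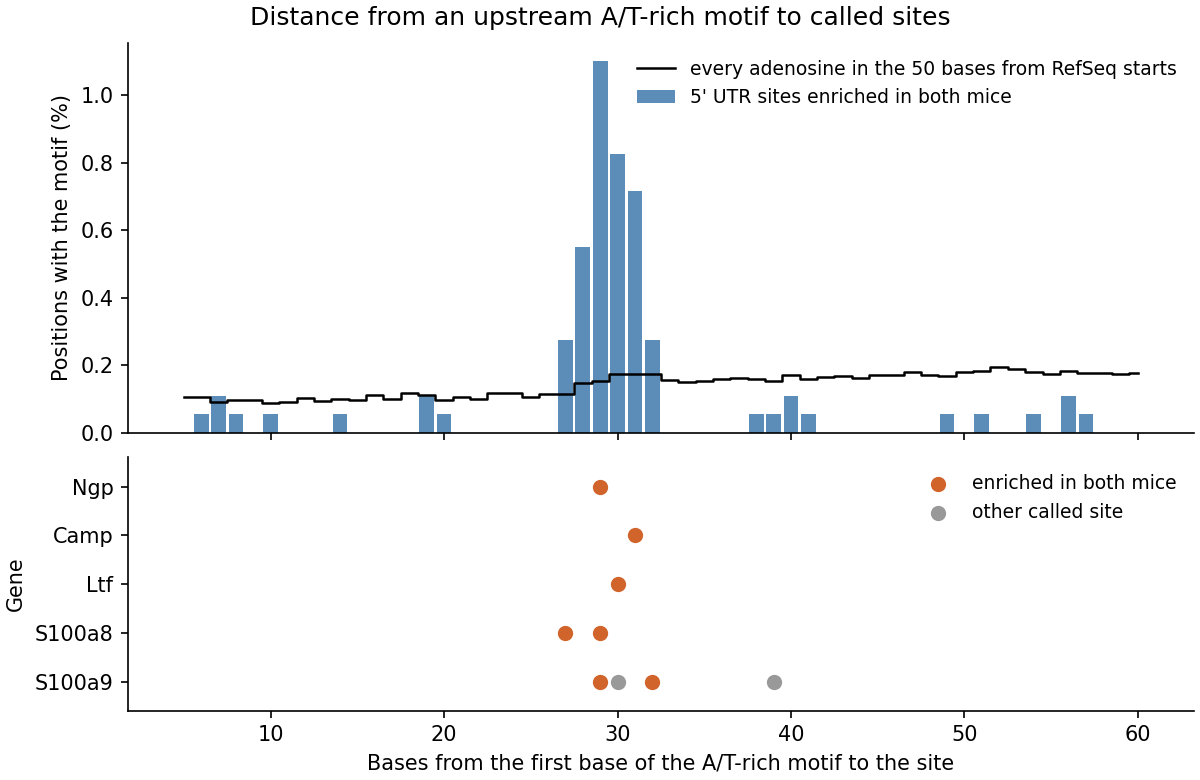
Top, percent of positions with the 5-base A/T-rich motif beginning at each distance upstream, for the 1818 readable 5' UTR sites enriched in both mice (bars) and for every adenosine in the 50 bases from RefSeq starts (line); bottom, the same distance for the readable called sites of the 5 genes, orange where enriched in both mice and grey otherwise. The bars rise between 27 and 32 bases, and the 7 orange points lie in that range.

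The sites of S100a8 and S100a9 enriched in both mice had high scores, and their folds stood lower in the order of all called sites than their scores did. The pair at the start of S100a8 had scores of 87.5 and 87.2 in mouse 1 and of 91.9 and 94.6 in mouse 2, between the 91.7th and the 93.8th percentile of all called sites. Their folds lay between the 47.5th and the 65.2nd percentile of all called sites, and between the 66.0th and the 81.1st of 5' UTR sites alone. The folds of the S100a9 pair at 30 and 33 lay between the 36.5th and the 78.3rd percentile of all called sites, and between the 55.8th and the 89.9th of 5' UTR sites. Of the 433 5' UTR sites of mouse 1 with a score from 70 to 100 the median fold was 24.1 (quartiles 13.9 and 41.5), and of the 530 in mouse 2 it was 24.2 (12.8 and 39.9). Ngp, with scores of 73.5 and 73.6, lay above these medians in both mice, and the S100a8 pair and the S100a9 site at 30 lay below them in both. The S100a9 site at 33 lay below the median in mouse 1 and above it in mouse 2. The other 5' UTR sites of both genes had scores of 43.0 or less. The tables hold no read numbers, so the depth behind a site is unknown and no interval can be given for its fold. In mouse 1, 62.1% of the folds were whole multiples of a constant, 1.003, and in mouse 2, 62.0% were whole multiples of 0.963. The origin of this constant is not stated, and whether such folds rest on few reads was not tested.

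**Figure D3:**
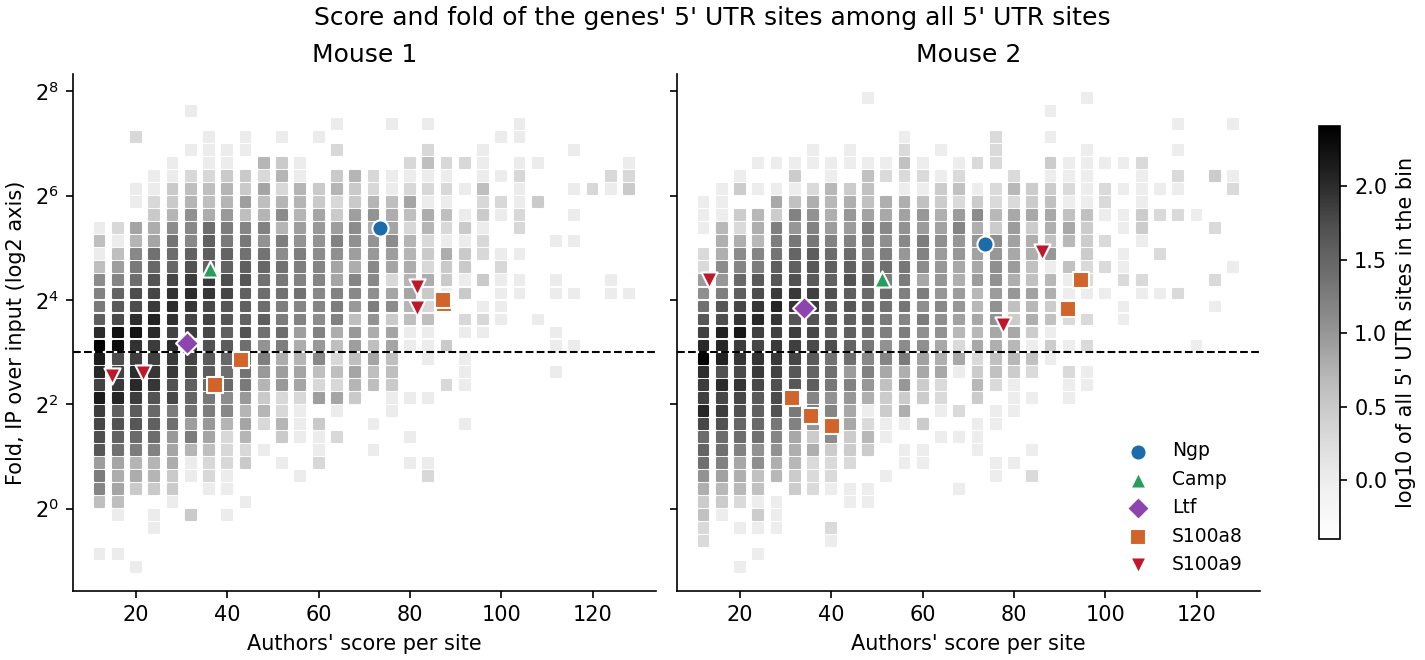
Authors' score against fold (log2 axis) for the 5' UTR sites of the 5 genes in mouse 1 (left) and mouse 2 (right), over the density of all 5' UTR sites with scores up to 130 (grey squares, darker for more sites); the dashed line is the limit of 8. The S100a8 and S100a9 pairs lie at scores above 77 with folds from 11.5 to 30.1, and Ltf and Camp lie at lower scores.

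Other granule genes gave context, with 86.9% of the genes called in both mice carrying a site enriched in both. Of 6 primary granule genes 2 had called sites, and both carried 1 site enriched in both mice, in the 5' UTR: Prtn3, which encodes proteinase 3 (folds 42.1 and 15.9), and Ctsg, which encodes cathepsin G (15.04 and 14.9). No site was called for Mpo or Elane. Of 14 genes of the secondary and tertiary granules, 8 were called in both mice and 6 carried a site enriched in both. Cyba (35.3 and 35.9) and Cybb (23.4 and 27.3), subunits of the phagocyte oxidase that macrophages also make, had their strongest such site in the 5' UTR, while that of the metalloprotease gene Adam8 (29.0 and 36.7) lay in the 3' UTR and that of the haptoglobin gene Hp (11.5 and 30.8) in coding sequence. Chil3 and Pglyrp1 had called sites and none enriched in both. Of the 19 sites of this list enriched in both mice 7 lay in 5' UTRs (36.8%), against 13.9% over all genes. Of these 7, Adam8 had 3, Cybb 2, and Cyba and Lcn2 1 each, so the share rests on few genes. All 7 sites of the 5 members enriched in both mice lay in 5' UTRs. The members were chosen with the annotated position known, so nothing is read from that difference.

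Lcn2, which encodes the secondary granule protein lipocalin 2, was the only gene of the other lists with ATAAA 25 to 35 bases before an enriched 5' UTR site, at 28 bases, out of 7 readable sites in those lists. Its single site, 31 bases before the RefSeq start, had folds of 15.8 and 16.4. It is named after its values were seen.

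Of 10 surface and regulatory genes of neutrophils 4 were called in both mice, and Csf3r (24.6 and 49.1) and the chemokine receptor gene Cxcr4 (34.1 and 34.7) carried enriched sites in both, in coding sequence. Stfa2l1 had a called site in each mouse and none enriched in both, and no site was called for Ly6g, a defining surface marker of mouse neutrophils. The tables hold no transcript levels, so whether the 5 transcripts came from macrophages or from remaining granulocytes or precursors was not tested. Fewer cells of a type and less RNA per cell cannot be told apart in such bulk samples.

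Of 14 macrophage genes, 13 were called in both mice and 12 carried a site enriched in both. That was 92.3% of those called, against 86.9% over all genes called in both mice. Called sites do not measure transcript levels, so the label of the cells was not tested. The strongest sites were in Spi1 (155 and 161), Csf1r (97.3 and 126) and C1qa (130 and 78.1), all in 3' UTRs, and in the coding sequence of Mrc1 (152 and 49.4), while Itgam had a called site and none enriched in both. The weakest, named after their values were seen, were in Adgre1 (10.4 and 8.57) and Cd68 (8.83 and 8.89), and no site was called for Marco. Of the 76 sites of this list enriched in both mice, 14.5% lay in 5' UTRs. No site was called for any of 7 mast cell, basophil and eosinophil genes or of 5 erythroid genes. Of 8 lymphocyte genes 2 carried a site enriched in both, Lck and Cd79b, and of 6 dendritic cell genes only Ccr7 had a called site, in mouse 2.

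Among 15 other genes with S100 names, 4 were called in both mice. S100a13 (68.5 and 51.0) and S100a6 (39.3 and 35.2) carried 1 site each enriched in both, in the 5' UTR, and the strongest of S100a10 lay in coding sequence (32.3 and 15.96). Along the genome, introns included, these 5' UTR sites lay 696 and 290 bases from the RefSeq start in S100a13 and S100a6. The sites of the 5 members enriched in both mice lay 47 bases or fewer from it. Among the granule genes named above, the strongest site of Prtn3 lay 3 bases before the start and that of Cyba 32 bases after it. The strongest sites of Ctsg and Cybb, also in 5' UTRs, lay 108 and 18460 bases after it. In S100a1 each mouse had 5 called sites, of which none was enriched in both. No site was called for 10 of the 15.

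Of 7 genes for receptors and partners of the S100A8 and S100A9 proteins, 4 of the 5 called carried a site enriched in both mice. Cd14, the LPS co-receptor gene, had 18 such sites with a highest fold of 147 and 123 in coding sequence, and Tlr4 had 18 with 129 and 126 in the 3' UTR. Emb (80.2 and 56.8) and Cd36 (16.2 and 35.6) followed with their strongest in the 5' UTR, and Bsg had a called site and none enriched in both. In this list 14.6% of the 41 sites enriched in both lay in 5' UTRs.

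The genes most like the members were sought among the 942 other named genes whose called sites in both mice all lay in 5' UTRs, by the Euclidean distance of their highest log2 fold in each mouse to the members' medians (folds of 19.0 and 21.2). Over these 2 values the nearest were Cox17 at 0.026, Rpf2 at 0.032, Polr2g at 0.055, Necap1 at 0.071 and Bag1 at 0.081 on the log2 scale. Cox17, which encodes a copper chaperone of the respiratory chain, had 3 called sites in each mouse and a highest fold of 18.8 and 21.5. Likeness here means only a similar highest fold at a 5' UTR site, over 2 mice. Among the members, S100a9 also had called sites at a 3' splice site. The genes compared could have none there, because only genes with all called sites in 5' UTRs were searched.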

How the data were processed

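The members and gene lists were chosen with earlier results of these data known. The authors deposited 1 table of called sites per mouse, not pooled. Each site has a fold, the ratio of IP to input read starts, and a score, both computed by the authors, per the file headers. Per the submitters' processing notes, cutadapt 2.7, STAR 2.6.0c and UMI-tools 0.5.1 were used, with the build mm10. The site caller is not given in the sources used here. Depth is unknown.

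The end of each deposited interval was taken as the 1-based position. A site was enriched at a fold of at least 8 and shared at the same base and strand. Distances were taken from the RefSeq gene table of GRCm38.p6, which held 98.7% of the 7827 symbols called in both mice, and sequences from its promoter table (250 bases before to 50 after each start). All 5 genes matched. Distances to a start were counted along the genome, introns included. With 1 IP library per mouse no test was made. Named genes were all members, the 4 highest genes of each list, up to 2 with called sites and none enriched in both, and the 5 nearest to the members; 1 gene that this rule picks is not reported here. Genes stated to have no called site were named after their values were seen. The sharing step was tested on simulated data: of 2 tables each keeping 80% of 45668 sites, 80.22% were shared. Python 3.11.15, pandas 2.3.3, NumPy 2.4.6, SciPy 1.17.1 and Matplotlib 3.10.9 were used.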

Additional observations from a re-analysis of the deposited data

How the results depend on the processing

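The 7 sites of the 5 genes enriched in both mice became 4 at log2 fold 4 and 11 at log2 fold 1. Those of all genes, 29288, became 16085 at log2 fold 4 and 37622 at log2 fold 1. At log2 fold 4 Ltf had no site left, and S100a8 and S100a9 had 1 each. The share of the members' enriched sites in 5' UTRs, 100%, was 90.9% at log2 fold 1. With 1 mouse left out at a time the members' count was 8 both times, that of all genes was 37333 to 37764, and the 5' UTR share was 87.5% to 100%, the lower value without mouse 2, where the S100a9 site at the 3' splice site counted. Sharing within 5 bases, a score of at least 20 and division of the folds by the constant of each table left the members' count at 7. Merging sites within 5 bases gave 5. For all genes these settings gave 29748, 24283, 28905 and 28137, in the same order. A further 2 alternatives were chosen after seeing the data: ATAAA 20 to 40 bases before the site (7 of 7 sites) and the base before the site in 5' UTR sites only (61.7% C, against 61.6% of all readable sites). Of the 5321 readable called sites 4847 were themselves 5' UTR sites, so these C shares could hardly differ. Both cover all readable called sites, whereas the 72.4% given above covers those enriched in both mice. Over all genes, ATAAA lay 20 to 40 bases before 4.02% of readable 5' UTR sites enriched in both mice and 2.77% of those called. For that range the share was 4.25% of RefSeq starts and 2.78% of every A in the 50 bases from them. No paired analysis was possible because the tables give no value per library and the deposited fold already sets IP against input of the same mouse.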
